A study of Homo sapiens with 4 samples.

Results

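Forkhead box (FOX) genes were followed in gene counts from day 7 cultures of H9, a human embryonic stem cell line. Members were all rows whose symbol is FOX, a letter from A to S, a number and at most 1 further letter, which gave 45 of the 25690 rows of the table, in 19 letter classes. The study set 2 libraries with the genotype label TFAP2A knockout (KO) against 2 wild-type (WT) libraries, all of the established line H9, which the series describes as non-neural ectoderm. TFAP2A encodes AP-2 alpha, a transcription factor of the early ectoderm and neural crest. The sample titles of the KO libraries name TFAP2C in place of TFAP2A, and no clone, guide or culture protocol was given in the sources used here. Nothing in the labels says that replicates were separate cultures, so p-values reflect how far these 4 libraries spread, and part of that spread may be technical. KO below stands for the genotype label.

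Forkhead proteins share a DNA-binding domain of the winged-helix type. FOXA members can open closed chromatin in endoderm. FOXO members carry the transcriptional response to low insulin and growth factor signalling and are held in the cytoplasm when AKT phosphorylates them. FOXI and FOXE members act in cranial placodes, FOXD3 in neural crest, FOXC and FOXF members in mesoderm, vessel and mesenchyme, FOXJ1 in motile cilia, and FOXM1 in mitosis.

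Libraries held 19305868 and 21797851 counts in KO and 17945210 and 17838204 in WT. Levels are CPM, counts scaled to TMM-adjusted library size, and the floor of 3 counts that goes with a count of 0 was 0.137 to 0.17 CPM per library, for counting error only. Changes are log2 fold changes of KO over WT with their standard error (SE), and adjusted p-values come from the quasi-likelihood test of edgeR, adjusted by Benjamini-Hochberg over 15643 genes, with a threshold of 0.05. TFAP2A itself was at 133 and 120.5 CPM in KO against 171 and 197 CPM in WT (log2 fold change -0.54, SE 0.07, adjusted p = 0.000124), so most of its transcript was still counted in KO. TFAP2C was at 8.88 and 5.77 CPM in KO against 27.5 and 30.5 CPM in WT (log2 fold change -1.99, SE 0.17), and the genotype therefore rests on the label. Of 4 AP-2 genes tested, 4 fell. Of 12 markers of non-neural ectoderm, such as KRT8, GATA3 and TFAP2A, all were detected, 8 fell and 0 rose, and their summed level was 2052 to 2139 CPM in KO against 2691 to 2938 CPM in WT. TFAP2A and TFAP2C are among the markers that fell and were already counted with the AP-2 genes. Among 9 neural markers tested, 6 rose and 1 fell, and among 8 amnion and trophoblast markers tested, 2 rose and 6 fell, with a summed level of 133 to 201 CPM in KO against 1789 to 1932 CPM in WT. Of 5 pluripotency markers tested 1 rose and 1 fell, and of 3 markers of migratory crest and its derivatives 1 fell. In these bulk libraries fewer cells of a type and less RNA per cell cannot be told apart.

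Of the 45 forkhead genes, 28 had enough counts to test, and 12 of these were higher in KO, 7 were lower and 9 did not pass. Across all genes tested, 21.9% were higher, 22.3% were lower and 44.2% were called in either direction. The median log2 fold change was 0.20 over the 28 tested members and 0.00 over all genes tested, and the median absolute change was 0.83 against 0.25. A log2 change of at least 1 was seen in 8 higher and 4 lower members, against 4.49% higher and 6.77% lower of all genes tested. For FOXA3, FOXL1 and FOXF2 no library of the lower genotype passed the count filter, so these 3 entered the test through the genotype in which they were high. The same holds for genes of the lists that lie under the filter of 0.537 CPM in both libraries of a genotype, such as TRIM63, ATP6V1B1 and RUNX1. Libraries of the genotypes did not overlap for any of the 19 called members, nor for FOXJ2, FOXK2 and FOXO3B, which did not pass. The share of all genes tested without overlap is not given here. Statements on overlap, here and below, therefore only describe the libraries and add no support to the calls.

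**Figure D1:**
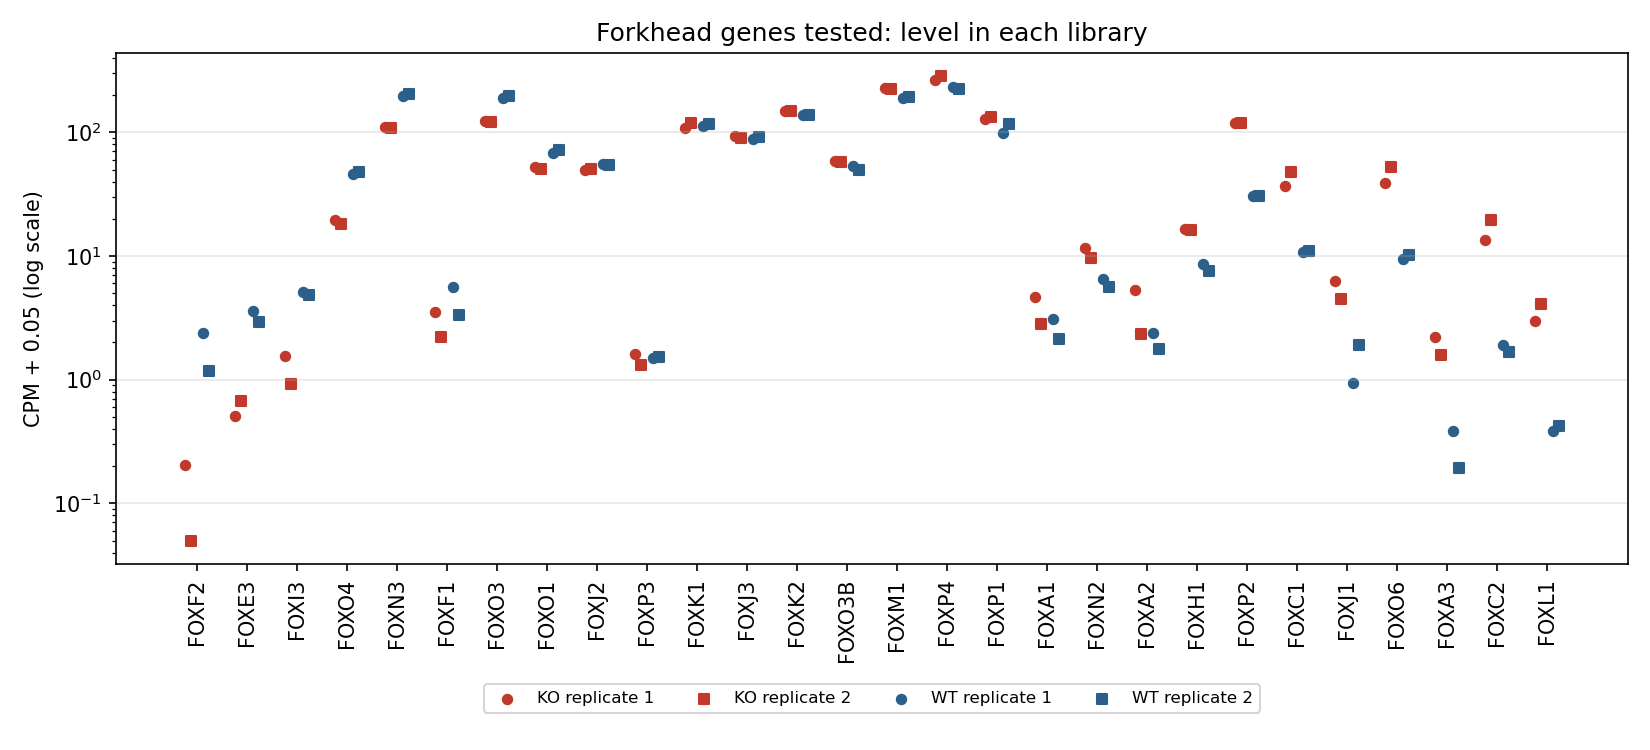
Level of each of the 28 forkhead genes tested, as CPM plus 0.05 on a log axis, in KO (red) and WT (blue) libraries, with circles for replicate 1 and squares for replicate 2. Genes run from the lowest to the highest log2 fold change, from FOXF2 at 0.154 and 0 CPM in KO to FOXL1 at 2.94 and 4.01 CPM in KO.

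The FOXO genes moved in opposite directions. FOXO1, FOXO3 and FOXO4, broadly expressed regulators of metabolism, stress response and cell cycle arrest, were lower in KO, and FOXO6, a member best known in brain, was higher. FOXO4 was at 19.3 and 18.2 CPM in KO against 45.8 and 47.6 CPM in WT, a 2.49-fold decrease (log2 fold change -1.31 with SE 0.08, adjusted p = 8.11e-09). FOXO3 was at 124 and 120.4 CPM in KO against 190.4 and 197 CPM in WT (log2 fold change -0.66, SE 0.05, adjusted p = 1.18e-07). FOXO1 was at 52.8 and 50.6 CPM in KO against 67.4 and 72.4 CPM in WT (log2 fold change -0.44, SE 0.07, adjusted p = 0.000114). In all 3 genes both KO libraries lay below both WT libraries. FOXO6, by contrast, was at 38.6 and 52.4 CPM in KO against 9.47 and 10.2 CPM in WT, 4.63-fold higher (log2 fold change 2.21, SE 0.16, adjusted p = 1.03e-05), with KO replicate 2 the higher of the KO pair.

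FOXO3B, a close copy of FOXO3 on chromosome 17, did not pass, at 58.2 and 57.5 CPM in KO against 53.2 and 49.7 CPM in WT (log2 fold change 0.17, SE 0.07, adjusted p = 0.0573). Reads of the 2 genes are hard to separate. Of the 1879 windows of 50 bases in the GENCODE transcript of FOXO3B, 64.2% also occur in a FOXO3 transcript, whereas 15.7% of the FOXO3 windows occur in FOXO3B. The sources used here do not give how the counting divided such reads, so the separate values of this pair are uncertain. Their sum was 182 and 178 CPM in KO against 244 and 247 CPM in WT, a log2 ratio of -0.45.

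The enzymes that act on FOXO proteins and the genes that FOXO proteins are known to activate were set beside the FOXO genes. Among 22 regulators tested, 6 rose, 7 fell and 9 did not pass, with a median log2 fold change of 0.02. SGK1, a kinase gene whose product phosphorylates FOXO proteins, was at 10.4 and 15.3 CPM in KO against 7.27 and 6.63 CPM in WT (log2 fold change 0.90, SE 0.18). PIK3R1, a regulatory subunit of PI3 kinase, fell to 76.7 and 70.8 CPM in KO, against 126 and 146 CPM in WT (log2 fold change -0.88), and the growth factor receptor gene IGF1R fell too (log2 fold change -0.58). Of 30 FOXO target genes 25 were tested, of which 6 rose, 13 fell and 6 did not pass, with a median log2 fold change of -0.33. The ubiquitin ligase gene FBXO32 fell to 6.37 and 5.22 CPM in KO, against 16.5 and 15.3 CPM in WT (log2 fold change -1.46, SE 0.14), and the growth arrest gene GADD45A fell to 13.6 and 11.8 CPM in KO, against 24.6 and 26.2 CPM in WT. In the other direction TRIM63, another ubiquitin ligase gene, was at 1.38 and 1.26 CPM in KO against 0.0279 and 0.227 CPM in WT (log2 fold change 3.49, SE 0.64), and the pyruvate dehydrogenase kinase gene PDK4 rose (log2 fold change 1.44, SE 0.36).

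The FOXP genes, which encode repressors that pair with each other and act in brain, lung and heart development, were higher apart from FOXP3. FOXP2, known for its role in speech and neural circuits, rose to 119 and 118 CPM in KO, against 30.7 and 30.6 CPM in WT, 3.87-fold higher (log2 fold change 1.95, SE 0.06, adjusted p = 1.41e-11). Its replicates lay within 1 CPM of each other in each genotype. FOXP4 rose by less, to 266 and 284 CPM in KO, against 232 and 223 CPM in WT (log2 fold change 0.27, SE 0.05, adjusted p = 0.000672). FOXP1 was at 128 and 134 CPM in KO against 98.97 and 116 CPM in WT (log2 fold change 0.28, SE 0.07, adjusted p = 0.00692), and its call was lost without KO replicate 2 (adjusted p = 0.0689) or WT replicate 1 (adjusted p = 0.104). FOXP3, the regulatory T cell factor, was at 1.56 and 1.26 CPM in KO against 1.45 and 1.47 CPM in WT and did not pass (adjusted p = 0.889).

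Of the broadly expressed forkhead genes outside these classes, FOXM1 rose a little, FOXN3 fell and FOXK1, FOXK2, FOXJ2 and FOXJ3 did not pass. FOXM1, which drives genes of mitosis, was at 226 and 225 CPM in KO against 189.6 and 193 CPM in WT (log2 fold change 0.24, SE 0.05, adjusted p = 0.00116). FOXN3, a repressor first known as a checkpoint suppressor, fell to 111 and 108 CPM in KO, against 196 and 203 CPM in WT, a 1.82-fold decrease (log2 fold change -0.86 with SE 0.05, adjusted p = 8.10e-09). Its antisense gene FOXN3-AS1, which lies inside FOXN3, was lower too (log2 fold change -0.97, SE 0.29, adjusted p = 0.0149), and because the use of strand is not given, reads of the overlap cannot be assigned. FOXN2, of the same class, moved the other way, at 11.5 and 9.50 CPM in KO against 6.48 and 5.61 CPM in WT (log2 fold change 0.79, SE 0.16, adjusted p = 0.000979). FOXK1 and FOXK2, repressors of autophagy and metabolic genes, had log2 fold changes of -0.01 (SE 0.06) and 0.10 (SE 0.05), and the FOXJ pair FOXJ2 and FOXJ3 had log2 fold changes of -0.14 (SE 0.07) and 0.03 (SE 0.06).

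Mitotic genes known to be activated by FOXM1 were counted beside it. Of 22 tested, 15 rose, 0 fell and 7 did not pass, with a median log2 fold change of 0.26. Those that did not pass include PRC1 (log2 fold change -0.03), CDC25B (log2 fold change -0.13) and CKS1B (log2 fold change -0.73), named after their values were seen. CENPF, a kinetochore protein gene, was at 539 and 494 CPM in KO against 175 and 202 CPM in WT (log2 fold change 1.45, SE 0.07), and the centrosome kinase gene NEK2 was at 60.4 and 59.9 CPM in KO against 27.9 and 25.5 CPM in WT (log2 fold change 1.17, SE 0.07). TOP2A (log2 fold change 0.52) and BUB1 (log2 fold change 0.46) rose by less. CENPF and NEK2 lie on chromosome 1 among genes that were also higher, with a median log2 fold change of 0.59 over 43 genes within 5 Mb of CENPF and 0.53 over 45 genes within 5 Mb of NEK2. FOXO6 is also on chromosome 1 but far from these genes, with a start at 41827603 against 214776532 for CENPF. Around it the median over 138 genes within 5 Mb was -0.01. Without CENPF and NEK2, 13 of 20 rose and the list's median was 0.24.

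**Figure D2:**
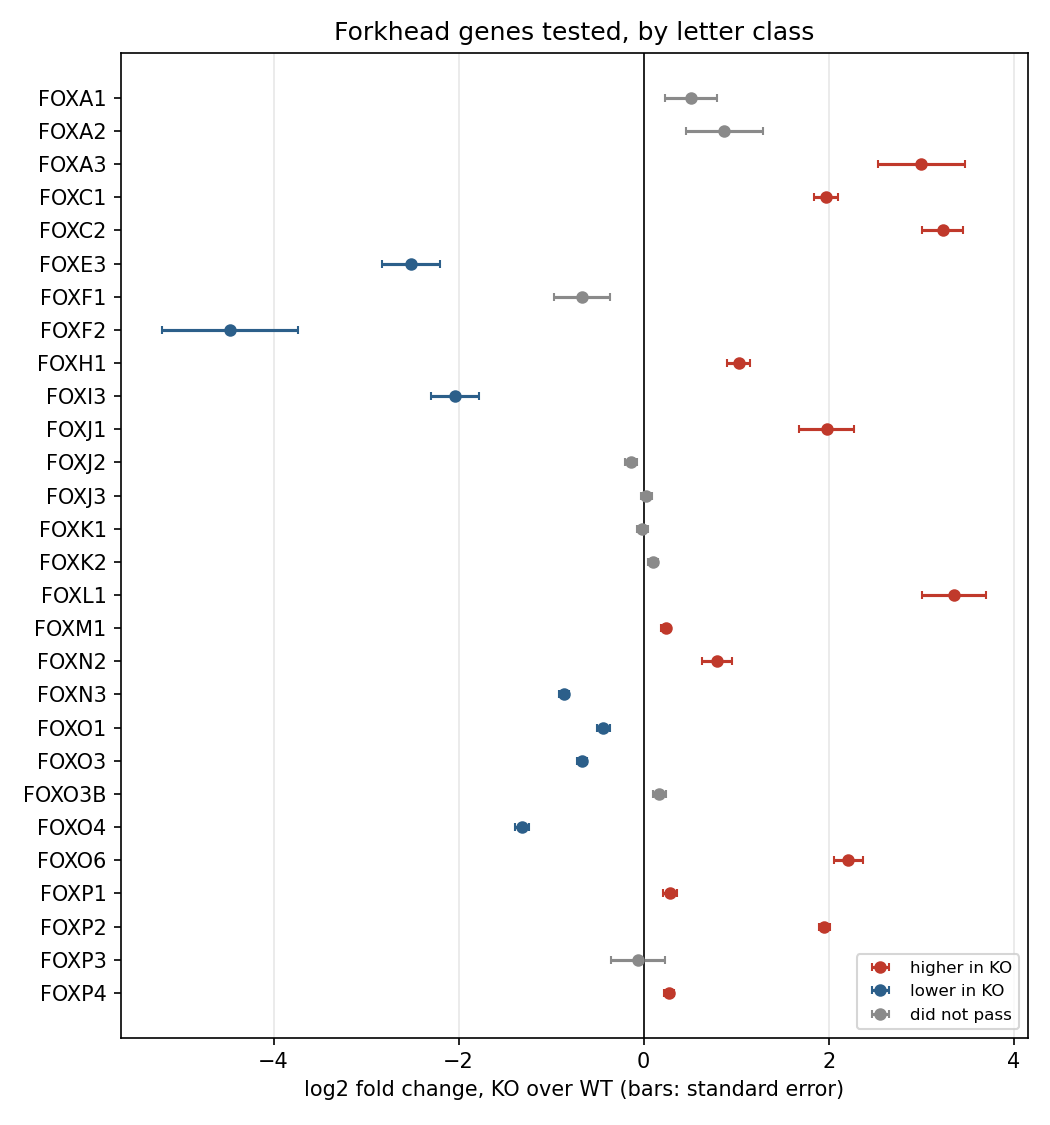
Log2 fold change of KO over WT with its standard error for the 28 forkhead genes tested, from class A at the top to class P at the bottom, in red where higher in KO, blue where lower and grey where the gene did not pass. Classes N and O hold genes that passed on either side of 0, such as FOXO4 at -1.31 and FOXO6 at 2.21.

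The FOXC genes and FOXL1 rose, while the FOXF genes beside them did not. These genes lie in 2 clusters, with FOXQ1, FOXF2 and FOXC1 on chromosome 6 and FOXF1, FOXC2 and FOXL1 on chromosome 16. FOXC1 and FOXC2 act in the paraxial mesoderm, vessels, eye and cranial mesenchyme, FOXF1 and FOXF2 in the mesenchyme of gut, lung and palate, and FOXL1 in gut mesenchyme. FOXC1 rose to 37.0 and 48.0 CPM in KO, against 10.8 and 10.8 CPM in WT, 3.92-fold higher (log2 fold change 1.97, SE 0.13, adjusted p = 2.91e-07). FOXC2 was at 13.4 and 19.4 CPM in KO against 1.87 and 1.62 CPM in WT, 9.40-fold higher (log2 fold change 3.23, SE 0.22, adjusted p = 1.78e-07). In both genes KO replicate 2 was the higher of the KO pair, and every KO library was above every WT library. FOXL1 showed the same order, at 2.94 and 4.01 CPM in KO against 0.335 and 0.368 CPM in WT, which are 6 and 6.5 counts (log2 fold change 3.35, SE 0.35, adjusted p = 2.33e-06).

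In the chromosome 6 cluster FOXF2 went the other way from FOXC1. It had 3 counts in KO replicate 1 and 0 in KO replicate 2, against 42 and 20 counts in WT, so the ratio of WT over KO was 24.1 with a 95% exact (Clopper-Pearson) counting interval of 7.86 to 120 (log2 fold change -4.47, SE 0.74, adjusted p = 0.000442). The interval covers counting error only. The log2 fold change of FOXF2 was -3.44 without KO replicate 2, -3.86 without WT replicate 1 and -8.06 without KO replicate 1, the last a fitted value against 0 counts that depends on the prior count. FOXF1 did not pass, at 3.48 and 2.15 CPM in KO against 5.56 and 3.26 CPM in WT (log2 fold change -0.67, SE 0.30, adjusted p = 0.0998), and its libraries overlapped. FOXQ1 had 0 and 0.5 counts in KO and 0 counts in both WT libraries.

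By the positions in the table, which follow hg19, FOXC1 (chromosome 6, 1610681 to 1614129, plus strand) starts 215 kb beyond the end of FOXF2 (1390069 to 1395832, plus strand). FOXC2 (chromosome 16, 86600857 to 86602537, plus strand) lies 52.8 kb beyond FOXF1 and 9.58 kb before FOXL1 (86612115 to 86615304, plus strand). Transcripts next to the FOXC genes were also counted, and they passed the count filter of 0.537 CPM only through KO. FOXCUT, a non-coding gene just upstream of FOXC1 that was named after its values were seen, had 18.5 and 28 counts in KO against 0.5 and 2.5 in WT, a ratio of 13.3 (95% exact counting interval 4.23 to 66.2). FOXC2-AS1, which overlaps FOXC2 by 511 bases on the other strand, was at 1.02 and 1.58 CPM in KO against 0.140 and 0.142 CPM in WT, or 20 and 34.5 counts in KO against 2.5 and 2.5 in WT, and reads of the overlap cannot be assigned. GMDS, the next gene tested beyond FOXC1, was higher too (log2 fold change 0.42, SE 0.10, adjusted p = 0.00349). MTHFSD, between FOXF1 and FOXC2, had a log2 fold change of 0.04 and did not pass (adjusted p = 0.823). Within 1 Mb of FOXC2, C16orf74 was lower (log2 fold change -1.25, SE 0.19, adjusted p = 7.37e-05). C16orf74, GMDS and MTHFSD were named after their values were seen.

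**Figure D3:**
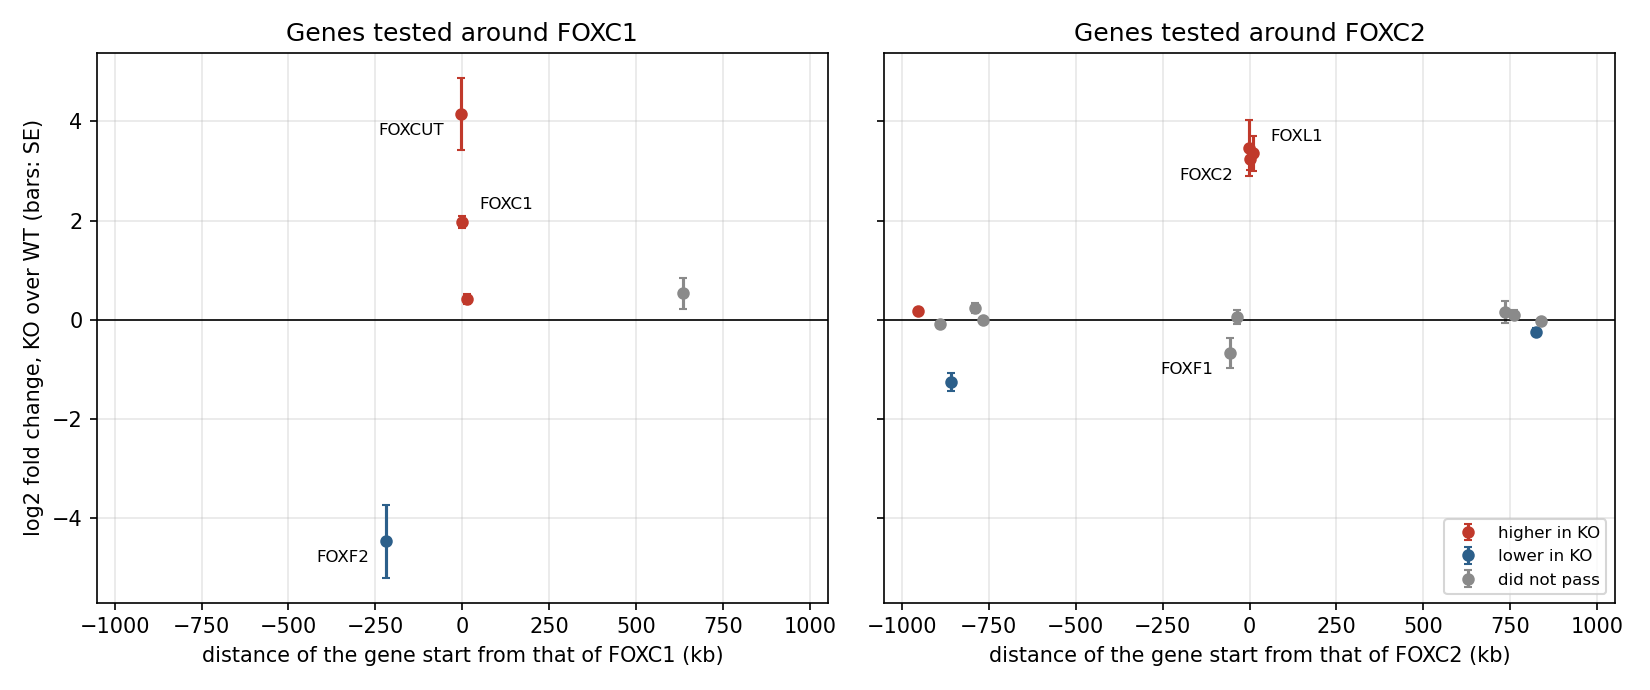
Log2 fold change of KO over WT with its standard error for each gene tested within 1 Mb of FOXC1 (left) and FOXC2 (right), against the distance between gene starts in kb. FOXC1 at 1.97 and FOXCUT rise while FOXF2 falls on the left, and on the right FOXC2 and FOXL1 stand with the unlabelled FOXC2-AS1 above the other genes tested, which run from -1.25 for C16orf74 to 0.24 for EMC8.

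Vessel, mesoderm and mesenchyme genes of the setting in which FOXC and FOXF genes act were split. Of 17 tested, 4 rose, 8 fell and 5 did not pass, with a median log2 fold change of -0.63. The endothelial cadherin gene CDH5 fell to 0.333 and 0.595 CPM in KO, against 11.01 and 12.8 CPM in WT (log2 fold change -4.68, SE 0.25), and the VEGF receptor gene KDR (log2 fold change -2.84) and the mesenchymal factor gene PRRX1 (log2 fold change -2.55) fell with it. VEGFC, a lymphatic growth factor gene, rose to 10.2 and 7.72 CPM in KO, against 1.51 and 1.70 CPM in WT (log2 fold change 2.47, SE 0.22). Over the whole lists, 11 mesenchyme markers summed to 10533 to 11961 CPM in KO against 12753 to 13196 CPM in WT, with 2 higher and 6 lower. Of 9 endothelium and blood markers 6 were tested, 1 higher and 4 lower, and they summed to 31.1 to 31.8 CPM in KO against 62.0 to 62.9 CPM in WT, with PECAM1 at 0 in all libraries. The part of these cell types in the FOXC and FOXF changes was not tested.

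AP-2 proteins bind the word GCCNNNGGC, which reads the same on both strands, so the 250 bases before each RefSeq start were searched for it. The promoters shown are those of neighbours or class members that moved in opposite directions, of FOXO1, which was lower and holds the word, and of the placode gene FOXI3, 5′ to 3′ on the gene's strand in GRCh38.p14, with the word in capitals.
FOXC1 (chr6:1609665-1609914, plus strand): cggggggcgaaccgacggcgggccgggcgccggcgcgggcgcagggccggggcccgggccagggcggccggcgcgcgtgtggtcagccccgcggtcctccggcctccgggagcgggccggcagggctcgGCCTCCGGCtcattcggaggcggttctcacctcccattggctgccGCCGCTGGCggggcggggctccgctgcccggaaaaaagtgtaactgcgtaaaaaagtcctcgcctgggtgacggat
FOXF2 (chr6:1389326-1389575, plus strand): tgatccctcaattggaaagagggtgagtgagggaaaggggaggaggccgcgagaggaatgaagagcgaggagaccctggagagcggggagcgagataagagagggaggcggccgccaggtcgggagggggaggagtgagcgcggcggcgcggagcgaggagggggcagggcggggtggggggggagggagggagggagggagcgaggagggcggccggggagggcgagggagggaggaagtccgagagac
FOXO6 (chr1:41361184-41361433, plus strand): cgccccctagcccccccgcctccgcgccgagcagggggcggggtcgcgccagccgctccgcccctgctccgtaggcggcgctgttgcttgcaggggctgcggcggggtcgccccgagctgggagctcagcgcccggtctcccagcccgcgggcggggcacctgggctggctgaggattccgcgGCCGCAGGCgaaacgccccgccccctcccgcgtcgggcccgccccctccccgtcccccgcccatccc
FOXO4 (chrX:71095601-71095850, plus strand): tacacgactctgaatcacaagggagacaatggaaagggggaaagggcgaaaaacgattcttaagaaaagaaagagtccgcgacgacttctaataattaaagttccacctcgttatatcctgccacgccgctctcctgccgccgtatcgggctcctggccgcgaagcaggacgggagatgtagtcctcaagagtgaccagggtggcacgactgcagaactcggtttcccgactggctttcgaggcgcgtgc
FOXO1 (chr13:40666642-40666891, minus strand): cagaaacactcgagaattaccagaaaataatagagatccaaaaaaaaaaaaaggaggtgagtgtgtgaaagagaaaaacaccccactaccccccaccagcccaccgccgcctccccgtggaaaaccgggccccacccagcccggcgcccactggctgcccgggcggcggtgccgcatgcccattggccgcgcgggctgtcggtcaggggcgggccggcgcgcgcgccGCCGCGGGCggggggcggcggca
FOXI3 (chr2:88452694-88452943, minus strand): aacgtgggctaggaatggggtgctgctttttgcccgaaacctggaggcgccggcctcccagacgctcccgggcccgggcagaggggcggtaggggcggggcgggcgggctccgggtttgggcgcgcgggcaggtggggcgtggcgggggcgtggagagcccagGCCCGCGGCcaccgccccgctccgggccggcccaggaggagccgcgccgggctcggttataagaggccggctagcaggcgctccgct
The word begins at positions -121 and -76 from the start of FOXC1, at -67 in FOXO6, at -23 in FOXO1 and at -87 in FOXI3, and is not in these windows of FOXF2 and FOXO4. Of 4 starts of FOXO3, 1 held the word, at -229. The word thus occurred before genes that were higher and before genes that were lower in KO. Promoters were found for 34 of the 45 members, at 45 starts, of which 33.3% held the word, against 19.8% of all 35116 starts. Of the 30 starts of tested members 40.0% held it, against 26.2% of the 16467 starts of genes tested. No promoter was found for 7 of the 19 called members, namely FOXC2, FOXL1, FOXE3, FOXJ1, FOXH1, FOXM1 and FOXN2. By direction, 4 of 12 starts of higher members (33.3%), 3 of 9 starts of lower members (33.3%) and 5 of 9 starts of tested members that did not pass held the word. These shares count every start, and members such as FOXP1 and FOXO3 have several. Counted per member with a promoter, 4 of 6 higher, 3 of 6 lower and 4 of 7 that did not pass held the word. Over all genes the share of starts was 25.7% for genes higher in KO and 28.3% for genes lower in KO. The word TGTTTAC, bound by many forkhead proteins and searched on both strands, was in 1 of the 45 member starts (2.22%) and in 2.98% of all starts. A match describes these letters and is not a binding site.

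FOXE3 and FOXI3, forkhead genes of the cranial placodes, were lower in KO. FOXE3, a lens placode factor, was at 0.461 and 0.618 CPM in KO against 3.55 and 2.86 CPM in WT, a 5.72-fold decrease (log2 fold change -2.52 with SE 0.31, adjusted p = 1.39e-05). FOXI3, a factor of the preplacodal region and pharyngeal arches, was at 1.51 and 0.870 CPM in KO against 5.06 and 4.79 CPM in WT, a 4.10-fold decrease (log2 fold change -2.04 with SE 0.26, adjusted p = 1.85e-05). For both genes every KO library lay below every WT library.

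FOXD3, a neural crest specifier, was nearly undetected at day 7 in both genotypes, with 0 counts in both KO libraries against 2 and 0 counts in WT. FOXD2 lies 18.0 kb beyond FOXE3 on chromosome 1 and was counted only in KO, with 6 and 5 counts against 0 in both WT libraries, at least 3.15-fold higher when 3 counts over the WT group are used as the floor. It did not pass the count filter, and without that filter its adjusted p was 0.0212. FOXD1 had 0 counts in all libraries, and FOXD4 had 1.5 and 4 counts in KO against 3.5 and 6.5 in WT, with reads that its near-identical copies could share.

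The genes that accompany these members were split. Of 14 preplacodal genes tested, 5 rose, 5 fell and 4 did not pass, with a median log2 fold change of -0.11. The coactivator gene EYA2 fell to 3.22 and 3.02 CPM in KO, against 28.0 and 35.5 CPM in WT (log2 fold change -3.35), and IRX1 fell as well (log2 fold change -4.32), whereas GBX2 (log2 fold change 5.40) and PAX2 (log2 fold change 3.01), genes of the ear and the midbrain-hindbrain boundary, rose. Of 21 neural crest genes tested, 3 rose, 12 fell and 6 did not pass, with a median of -0.54. EDNRB (log2 fold change -5.86), MSX1 (log2 fold change -3.66), PAX7 (log2 fold change -3.15) and TFAP2B (log2 fold change -2.67) fell, and SOX10 was near 0 in both genotypes, at 0.183 CPM in KO against 0.169 CPM in WT. Of 8 forebrain genes tested, 4 rose and 2 fell. EMX2 (log2 fold change 2.57) and NR2F1 (log2 fold change 1.60) rose, DLX2 (log2 fold change -5.03) and OTX1 (log2 fold change -2.65) fell, and RAX and SP8 were at 0 in all libraries. Ionocyte genes of the FOXI1 network were mostly too low, with FOXI1 itself at 0 in all libraries. Of 6 tested, 1 rose and 2 fell, namely the proton pump gene ATP6V1B1, at 0.102 and 0.0916 CPM in KO against 2.04 and 1.98 CPM in WT (log2 fold change -4.28), and the carbonic anhydrase gene CA2 (log2 fold change -2.39), while KIT rose (log2 fold change 0.45).

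FOXJ1, FOXA3 and FOXH1, factors of motile cilia, endoderm and Nodal signalling, were higher in KO, all at under 20 CPM. FOXJ1, the master factor of motile cilia, was at 6.24 and 4.47 CPM in KO against 0.894 and 1.84 CPM in WT, 3.94-fold higher (log2 fold change 1.98, SE 0.30, adjusted p = 0.000174). The log2 fold change of FOXJ1 was 1.55 without WT replicate 1 and 2.57 without WT replicate 2. FOXA3, a hepatic and gut factor, was at 2.15 and 1.53 CPM in KO against 0.335 and 0.142 CPM in WT, which are 6 and 2.5 counts and a 7.99-fold increase (adjusted p = 0.000128). The log2 fold change of FOXA3 was 3.94 without WT replicate 1 and 2.43 without WT replicate 2. FOXH1, on chromosome 8, which brings activated SMAD proteins to Nodal target genes, was at 16.6 and 16.1 CPM in KO against 8.52 and 7.54 CPM in WT (log2 fold change 1.03, SE 0.13, adjusted p = 1.25e-05). All 3 genes were higher in both KO libraries than in either WT library. FOXA2, a factor of definitive endoderm and floor plate, was at 5.25 and 2.29 CPM in KO against 2.32 and 1.73 CPM in WT and did not pass (log2 fold change 0.87, SE 0.42, adjusted p = 0.137). FOXA1 was at 4.58 and 2.77 CPM in KO against 3.05 and 2.10 CPM in WT and did not pass either (log2 fold change 0.51, SE 0.28, adjusted p = 0.162). For both of these KO replicate 1 was the highest library, and the size of the change depended on it. The log2 fold change of FOXA2 was 1.37 without KO replicate 2 but 0.18 without KO replicate 1. That of FOXA1 was 0.85 without KO replicate 2 but 0.11 without KO replicate 1.

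The genes that work with these factors were also counted. Of 21 motile cilia genes tested, 7 rose, 2 fell and 12 did not pass, with a median log2 fold change of 0.53. TPPP3, a tubulin-binding protein gene, was at 11.8 and 9.41 CPM in KO against 4.33 and 3.15 CPM in WT (log2 fold change 1.49), and the axoneme gene HYDIN was at 4.48 and 5.02 CPM in KO against 1.17 and 2.32 CPM in WT (log2 fold change 1.45). DNAH9 (log2 fold change -2.84) and SPAG6 (log2 fold change -1.64) fell. MCIDAS, which starts the multiciliated programme, and the dynein gene DNAI2 were at 0 in all libraries. The 7 ciliated cell markers summed to 12.4 to 14.9 CPM in KO against 5.98 to 7.01 CPM in WT. TPPP3 alone, with the values above, was the largest part of each sum. Of the 4 ciliated cell markers tested, 2 rose, 1 fell and 1 did not pass. The part of ciliated cells in the FOXJ1 change was not tested. Of 9 endoderm genes of the FOXA network tested, 1 rose, 2 fell and 6 did not pass. GATA4 rose to 197 and 219 CPM in KO, against 107 and 86.5 CPM in WT (log2 fold change 1.11), and GATA6 (log2 fold change -0.77) and AFP (log2 fold change -2.50, named after its values were seen) fell. The 8 endoderm markers summed to 9.73 to 12.4 CPM in KO against 13.3 CPM in each WT library. Of 10 Nodal pathway genes tested, 1 rose and 9 did not pass, at a background of 44.2% called. The one that rose was the receptor gene ACVR2B (log2 fold change 0.21), and EOMES was at 0 in all libraries. Among 18 partner genes of forkhead proteins, 3 rose, 5 fell and 10 did not pass, and the RUNX1 gene (log2 fold change -3.92) and the corepressor genes TLE3 (log2 fold change -0.34), TLE1 (log2 fold change -0.32) and TLE4 (log2 fold change -0.31) were among those that fell.

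**Figure D4:**
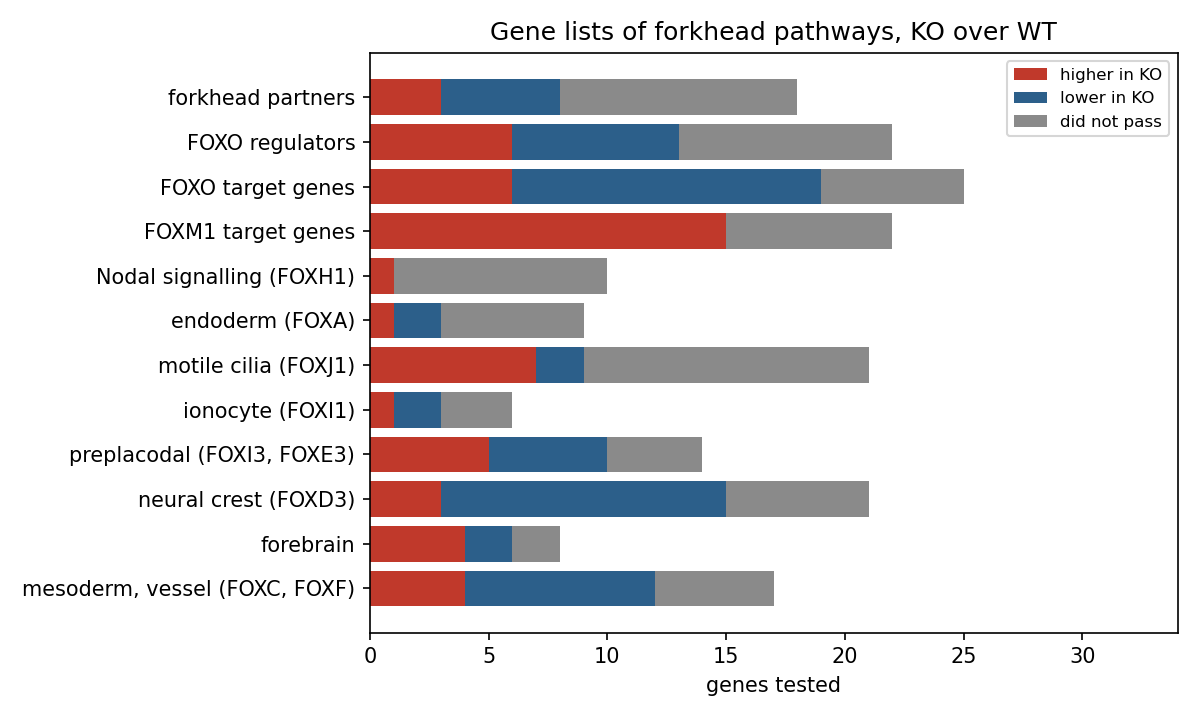
Number of genes tested in each list of forkhead partners, regulators, targets and settings that were higher in KO (red), lower in KO (blue) or did not pass (grey). The FOXM1 targets hold 15 higher and 0 lower genes of 22, and the FOXO targets hold 6 higher and 13 lower of 25.

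Per length, the order of the forkhead genes differed between genotypes. With CPM divided by the length of the longest protein-coding GENCODE transcript, FOXM1 stood first in both, at 64.7 CPM per kb in KO and 54.8 in WT, followed by FOXP4 at 46.3 in KO and 38.2 in WT. FOXO6 stood at rank 3 in KO and rank 13 in WT, and FOXP2 at rank 6 in KO and rank 14 in WT. The transcript used for FOXO6 has 1476 bases, against 5735 for FOXO1 and 7341 for FOXO3. Its level per kb and its ranks depend on that short length and are uncertain. FOXO4 stood at rank 16 in KO and rank 8 in WT. In KO FOXO6, FOXO3B and FOXK2 lay close together, at 30.8, 30.0 and 28.1 CPM per kb. The level and rank of FOXO3B are uncertain, because its reads are hard to separate from those of FOXO3.

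The other 17 members had too few counts to test, with at most 12 counts in any library. FOXB1, FOXB2, FOXD1, FOXI1, FOXN1 and FOXR2 had no count in any of the 4 libraries, so their level may have been up to the floor of 0.137 to 0.17 CPM. FOXN4, a retinal and spinal cord factor, had the highest level of them, with 6 and 12 counts in KO against 6 and 3 in WT. FOXE1, the thyroid factor, had 0 and 2.5 counts in KO against 0 and 3 in WT, and FOXL2, the ovarian factor, had 2.5 and 0.5 counts in KO against 0.5 and 4 in WT. FOXI2, FOXR1 and FOXS1 had at most 2 counts in any library. Differences of these genes were not detectable at this depth, FOXD2 excepted as given above.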

How the data were processed

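Per the labels' protocols, RNA was polyA-enriched. The authors deposited estimated counts per gene, all multiples of 0.5, and 37% of values were not whole. The submitters' processing notes name TopHat, HOMER, DESeq2 and hg38, but 42 rows lie on contigs named as in hg19 and 4.32% of 23019 genes began within 2000 bases of their GRCh38 position, so table positions are given as hg19. The sources used here do not give annotation, counting settings or strand use. Counts were rounded, filtered with filterByExpr, scaled with TMM factors and tested with edgeR 4.0.16 in R 4.3.3 (glmQLFit with robust estimation, glmQLFTest) on genotype alone, 2 libraries each. The SE is the log2 fold change over the square root of F. CPM uses unrounded counts and TMM-adjusted library sizes. The fit was tried on counts simulated with its own estimates of spread, so those estimates were not checked. It recovered 68 of 100 simulated log2 changes of 0.5 and 89 of 100 of 1. Of 15265 unchanged genes it called 23. Members and gene lists (22 lists, 294 of 298 symbols found) were chosen with earlier results of these data known. Every member was to be named, and of each list up to 4 called genes with the largest change whose mean reached 1 CPM in the genotype where they were higher. Others were chosen after their values were seen, as were the windows of 5 Mb. Rows with date-like symbols (28) were not named, and results for some genes are not reported here. Chi-square over degrees of freedom between replicates was 4.16 in KO and 4.31 in WT, above sampling noise. Promoters are from RefSeq (GRCh38.p14), transcript lengths from GENCODE. Alternatives were other scaling factors, filters and tools (DESeq2 1.42.0, limma 3.58.1), a replicate block and leaving out each library.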

Additional observations from a re-analysis of the deposited data

How the results depend on the processing

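Of the 19 called forkhead genes, 18 kept their call in all 14 alternatives, and FOXP1 lost it in 2. Over the leave-one-out fits 11 to 13 members were higher, 7 or 8 were lower, and 5232 to 5834 genes in all were called. Over the other fits at the same threshold 12 or 13 members were higher and 7 or 8 lower. DESeq2 called 4710 genes, with 12 higher and 7 lower members. With a log2 change of at least 1 also required, 1762 genes, 8 higher members and 4 lower members were called. FOXF1 passed as lower without the count filter (adjusted p = 0.0288) and without KO replicate 1 (0.0399) or WT replicate 2 (0.0111). FOXO3B passed as higher with upper quartile factors (0.0394) and with library size alone (0.0403). The sign changed for members near 0 that did not pass. Over the leave-one-out fits FOXJ3 ran between -0.0048 and 0.0637, FOXK1 between -0.0862 and 0.0598, and FOXP3 between -0.1861 and 0.0719. FOXJ3 was at -0.0048 without KO replicate 1 and -0.0009 without WT replicate 1. FOXK1 was at 0.0013 with upper quartile factors, 0.0057 with library size alone, 0.0598 without KO replicate 1 and 0.0142 without WT replicate 2. FOXP3 was at 0.0719 without KO replicate 2. The causes were not tested. Replicate numbers occur in the sample titles, but nothing says that they pair libraries, and the differences between replicates correlated at -0.0501 between genotypes. With the replicate block 6204 genes, 13 higher and 8 lower members were called, with FOXA2 (0.0329) and FOXF1 (0.0337) added. The fit had 2 libraries per genotype and 2 residual degrees of freedom, and no culture, clone or batch record was used.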

Other observations

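The table also holds 5 FOXD4-like copies outside the naming rule, none with more than 3 counts in a library. FENDRR, a non-coding gene that starts beside FOXF1, had 4.5 and 0.5 counts in KO against 12 and 5 counts in WT and was not tested. FOXD3-AS1 had 1 and 3 counts in KO against 0 in both WT libraries, and FOXD2-AS1 had 1.5 and 1 counts in KO against 0 in both WT libraries.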
